A study of Mus musculus with 12 samples.

Results

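Chromatin accessibility was compared between hematopoietic stem and progenitor cells (LSK) and granulocyte-monocyte progenitors (GMP) of mice that lack the upstream regulatory element (URE) of Spi1, the gene for the transcription factor PU.1. The comparison rested on 6 of the 12 ATAC-seq libraries of the study, 3 labelled URE LSK and 3 labelled URE GMP, chosen by their labels alone. The other 6 libraries, 3 WT-LSK and 3 WT-GMP, served as the reference for the same step with the element present. All cells came from bone marrow of C57BL/6 littermates, and the URE mice (genotype UREd/d) carried the deletion on both alleles in the germline, so that every cell type lacked the element. LSK were sorted as lineage-negative, Sca-1+ and c-Kit+ cells and GMP as lineage-negative, Sca-1-, c-Kit+ and CD16/32+ cells after bead enrichment for c-Kit. The methods give 3 mice per genotype and cell type. They do not say whether an LSK and a GMP library with the same replicate number came from the same mouse.

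ATAC-seq uses a transposase that inserts adapters into DNA that is not wrapped in nucleosomes, so that read density over a region measures how accessible it is. LSK hold the blood stem cells and the multipotent progenitors, and GMP are their committed descendants, which give rise to neutrophils and monocytes. Commitment closes enhancers of stem cell factors such as Meis1, Hoxa9 and Hlf and opens those of granule protein genes, for which the C/EBP factors and PU.1 are the main activators. PU.1 is an ETS-family factor that opens chromatin at GGAA-containing sites and, at high level, favours the monocyte over the neutrophil branch. The URE is an enhancer upstream of Spi1 that drives much of its expression in stem and progenitor cells, and its loss lowers PU.1 without removing it.

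The sequences below show the central 300 bases of 6 of the regions named below, as examples, from GRCm38, plus strand. They are 3 regions that opened from LSK to GMP in URE mice and 3 that closed, all outside annotated exons. Capitals mark exact matches, on either strand, to the letters of 6 factor families searched in every region, namely TTGCNNAA (C/EBP), GAGGAAGT (PU.1), AACCACA (RUNX), TTANGTAA (HLF) and TGATTNAT (MEIS-HOX), together with the core AGATAA of the GATA factors.
Region 6.63 kb upstream of Csf3r, chr4:126017775-126018074, opened: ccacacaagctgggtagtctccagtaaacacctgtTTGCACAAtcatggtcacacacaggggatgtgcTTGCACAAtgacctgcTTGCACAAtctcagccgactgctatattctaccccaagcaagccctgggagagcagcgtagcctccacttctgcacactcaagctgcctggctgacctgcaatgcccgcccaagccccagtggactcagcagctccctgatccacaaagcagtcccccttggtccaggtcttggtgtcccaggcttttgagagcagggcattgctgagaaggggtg
Region 56.6 kb downstream of the Irf8 start, chr8:120792772-120793071, opened: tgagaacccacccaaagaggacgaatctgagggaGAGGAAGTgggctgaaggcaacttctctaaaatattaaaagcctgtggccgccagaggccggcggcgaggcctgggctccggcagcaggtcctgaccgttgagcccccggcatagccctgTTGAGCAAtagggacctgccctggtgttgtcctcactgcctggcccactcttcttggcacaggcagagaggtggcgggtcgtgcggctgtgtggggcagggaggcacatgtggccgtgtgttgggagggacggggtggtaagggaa
Intronic region linked to Tnfrsf1b, chr4:145276505-145276804, opened: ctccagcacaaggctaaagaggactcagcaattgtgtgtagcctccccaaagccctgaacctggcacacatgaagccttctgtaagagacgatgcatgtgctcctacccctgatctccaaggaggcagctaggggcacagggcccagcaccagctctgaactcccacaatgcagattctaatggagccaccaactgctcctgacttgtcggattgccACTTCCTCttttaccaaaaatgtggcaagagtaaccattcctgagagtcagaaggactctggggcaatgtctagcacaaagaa
Meis1 intron, chr11:18970014-18970313, closed: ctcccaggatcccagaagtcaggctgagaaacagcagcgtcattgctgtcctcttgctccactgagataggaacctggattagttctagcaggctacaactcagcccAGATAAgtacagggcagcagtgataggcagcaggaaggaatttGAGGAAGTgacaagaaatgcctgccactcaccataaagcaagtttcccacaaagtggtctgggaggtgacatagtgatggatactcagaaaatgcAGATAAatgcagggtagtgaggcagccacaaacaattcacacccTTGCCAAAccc
Intronic region linked to Gm17542, chr10:58714124-58714423, closed: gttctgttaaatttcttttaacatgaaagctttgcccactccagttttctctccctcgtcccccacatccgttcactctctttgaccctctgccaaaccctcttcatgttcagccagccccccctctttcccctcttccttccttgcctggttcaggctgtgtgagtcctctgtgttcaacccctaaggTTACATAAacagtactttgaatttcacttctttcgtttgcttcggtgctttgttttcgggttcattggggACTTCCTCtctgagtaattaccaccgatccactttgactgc
Intergenic region linked to Ndufa9, chr6:126811625-126811924, closed: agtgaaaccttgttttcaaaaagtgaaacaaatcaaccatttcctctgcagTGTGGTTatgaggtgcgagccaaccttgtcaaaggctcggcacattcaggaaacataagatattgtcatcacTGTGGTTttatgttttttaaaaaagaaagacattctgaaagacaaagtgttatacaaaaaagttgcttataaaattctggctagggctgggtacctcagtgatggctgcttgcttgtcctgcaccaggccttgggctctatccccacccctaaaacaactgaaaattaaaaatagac
The Csf3r region held 3 C/EBP matches, all of the form TTGCACAA, and no PU.1 match. The Irf8 region held 1 C/EBP and 1 PU.1 match, and the Tnfrsf1b-linked region 1 PU.1 match. The Meis1 region held 1 C/EBP, 1 PU.1 and 2 GATA matches, so that both C/EBP and PU.1 letters also occurred in a region that closed. The Gm17542-linked region held 1 PU.1 and 1 HLF match and the Ndufa9-linked region 2 RUNX matches. The regions linked to Aatk and Ezr, named below, opened but are not shown. Their central 300 bases held 1 GATA match each and no C/EBP or PU.1 match. The closed region linked to D6Ertd527e, also not shown, matched none of the 6 families. A match describes the letters and does not show that a factor bound.

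The deposited table gave raw counts for 121336 regions in each library. Totals ranged from 36573582 to 62204826 counts in the 6 URE libraries and from 23072701 counts upward in all 12. Levels below are CPM, counts scaled to the library total after TMM correction, and a region was called opened or closed where edgeR's quasi-likelihood test gave a Benjamini-Hochberg adjusted p below 0.05 and an absolute log2 fold change above 1. Every adjusted p below is from that fit over all regions and 12 libraries. The deletion was visible in the counts. At 3 regions that lie 12.8 to 15.6 kb upstream of the Spi1 promoter region, picked for their near absence of reads in URE mice, no URE library had more than 6 counts (0.143 CPM), while the WT libraries ranged from 3.94 to 46.2 CPM. Since these regions were picked on those reads, their values describe the deletion and are no check of the labels. The cell type labels were checked with promoter regions of marker genes. Those of the LSK markers Hlf, Mecom, Meis1 and Procr summed to 280 to 326 CPM in URE-LSK and 207 to 221 CPM in URE-GMP, with 8 of 14 regions closed and 0 opened. Those of the GMP markers Elane, Prtn3, Mpo, Ctsg, Ms4a3 and Csf3r summed to 73.5 to 133 CPM in URE-LSK and 742 to 829 CPM in URE-GMP, with 10 of 12 regions opened and 0 closed. Of all promoter regions, 11.1% opened and 12.3% closed. Ly6a, which encodes Sca-1, had no region within reach, and the promoter of Kit, the gene of a surface marker shared by both gates, stood at 43.7 ± 2.40 CPM in URE-LSK and 46.1 ± 2.13 CPM in URE-GMP (SD, n = 3). Accessibility in bulk samples cannot tell a change within cells from a change in the mixture of cells inside a gate.

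The step from URE-LSK to URE-GMP changed accessibility across much of the set of regions. Of the 121336 regions tested, 59636 (49.1%) were called, 33479 (27.6%) as opened in URE-GMP and 26157 (21.6%) as closed. The 3 libraries of each cell type did not overlap in 32099 of the opened and 25857 of the closed regions. The calls were made on these same libraries, so these counts describe the calls and add no support. The share over all regions was not counted. Openings were larger than closings: the median log2 fold change was 2.54 among opened and -1.83 among closed regions, and 65.5% of the opened but 43.1% of the closed regions changed by more than 4-fold. The median over all regions was 0.03. The libraries of one cell type correlated at 0.961 to 0.980 (Pearson r of log2 CPM across regions) and those of different cell types at 0.629 to 0.771. In 1007 of the opened regions (3.01%) all URE-LSK libraries were at or below 3 counts, so that the size of those openings rests on the fit's prior count.

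In the plot of shares by library, the opened regions held 3.29, 3.70 and 4.59% of the counts in URE-LSK replicates 1 to 3 and 18.8, 19.7 and 17.6% in URE-GMP. The same regions held 8.10 to 8.84% in WT-LSK and 15.4 to 19.1% in WT-GMP. The closed regions held 16.8, 16.6 and 15.9% in URE-LSK and 4.44, 4.22 and 5.06% in URE-GMP, with 13.5 to 15.0% in WT-LSK and 5.6 to 7.47% in WT-GMP. As the regions were selected on the URE libraries, their shares there are a description. The WT-LSK values lay between URE-LSK and URE-GMP for both sets. Promoter regions as a whole took 56.7 to 58.3% of the counts in URE-LSK and 56.8 to 57.2% in URE-GMP, and these ranges overlapped.

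**Figure D1:**
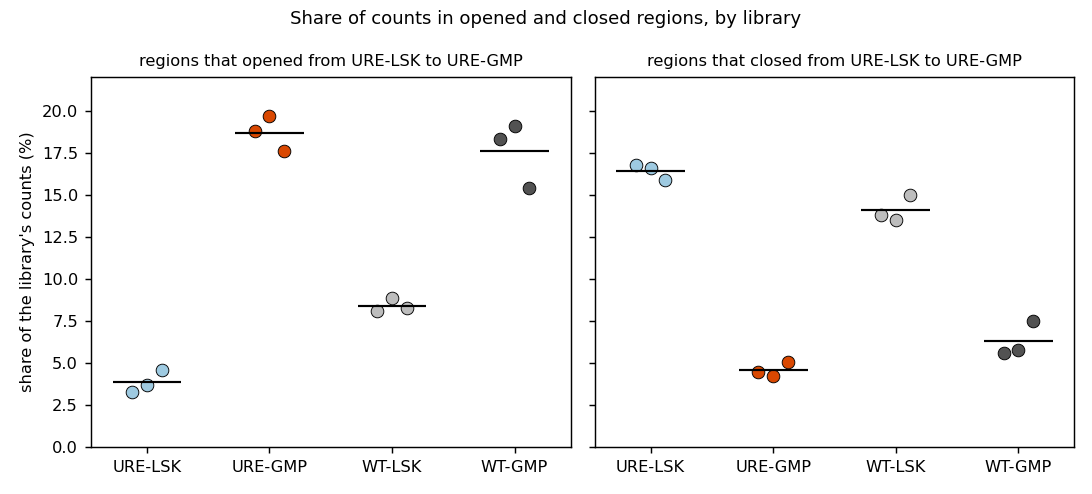
Share of each library's counts (%, y axis) in the regions that opened (left) or closed (right) from URE-LSK to URE-GMP, for the 3 libraries of each of 4 groups (points) with their mean (line). The URE-LSK libraries sit at 3.29 to 4.59% in opened regions, below the WT-LSK libraries at 8.10 to 8.84%.

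A smaller share of promoters than of other regions moved. Among 22920 regions within 500 bp of an annotated start site, 11.1% opened and 12.3% closed, against 31.4% and 23.7% of the 98416 other regions. Introns (32.2% opened, 24.1% closed) and intergenic regions (30.9% and 23.8%) were alike, and regions over coding exons opened in 24.2% and closed in 17.7%. Opened regions lay at a median of 7678 bp and closed regions at 9987 bp from the nearest start site, while uncalled regions lay at 3790 bp. Of 17205 protein-coding genes that were the nearest gene of at least 1 region within 100 kb (the link used below), 4458 had opened and no closed regions, 2961 had closed and no opened regions, and 5393 had both. A link by distance does not show that a region regulates the gene.

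Many regions at stem cell transcription factor genes closed in URE-GMP. Of 454 regions linked to 22 such genes, 207 (45.6%, against 21.6% of all regions) closed and 73 (16.1%, against 27.6%) opened, and their median log2 fold change was -0.89. Meis1, a homeobox cofactor of HOXA9, had 21 of 23 linked regions closed and 0 opened. Hlf, a PAR bZIP factor of stem cells, had 17 of 24 closed and 0 opened, Prdm16 had 27 of 37 closed and 1 opened, and Mecom, which encodes EVI1, had 23 of 40 closed and 5 opened. All 9 regions linked to Myct1 closed. Erg, an ETS factor of stem cells, differed in its counts of calls, with 14 of 43 regions opened and 3 closed. Its promoter fell from 57.0 to 38.6 CPM on average, below the fold threshold (log2 fold change -0.56, adjusted p = 0.00219).

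The Meis1 promoter stood at 51.4, 47.6 and 39.9 CPM in the URE-LSK libraries and at 15.1, 17.6 and 16.7 CPM in URE-GMP. The groups did not overlap, and the log2 fold change was -1.49 (SE 0.11, adjusted p = 2.64e-08). The Meis1 intronic region shown above (chr11:18969872-18970455) went from 20.2, 24.5 and 16.7 CPM to 2.86, 3.89 and 3.63 CPM, a log2 fold change of -2.56 (SE 0.19, adjusted p = 2.06e-08). It closed further than in WT mice, where it went from 35.1 to 20.8 CPM on average (log2 fold change -0.75), and the difference of the steps was -1.81 (SE 0.25, adjusted p = 2.56e-04). At the promoter the difference of -0.77 (adjusted p = 0.00379) stayed below the fold threshold. The Hoxa9 promoter, of a HOX gene that sustains self-renewal, fell from 64.7, 57.1 and 55.9 CPM to 13, 18.2 and 12 CPM (log2 fold change -2.03, SE 0.15, adjusted p = 2.43e-08). Its step in WT was -0.77, and the difference of -1.26 was called (SE 0.21, adjusted p = 9.37e-04).

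Other stem cell promoters moved by less than 2-fold or not detectably. The Hlf promoter had 39.8, 36.8 and 36.8 CPM in URE-LSK and 21.3, 21.2 and 21.9 CPM in URE-GMP, groups that did not overlap, with a log2 fold change of -0.81 (adjusted p = 1.66e-04). The Mecom promoter overlapped between the cell types, with 134 ± 7.99 and 124 ± 4.31 CPM (SD, n = 3 each) and a log2 fold change of -0.12 (adjusted p = 0.11). A Mecom intronic region had -0.90 (adjusted p = 1.34e-05), which passed the fold threshold only in the fit without URE-LSK replicate 3 (-1.03). An intronic region of Gata2, a zinc finger factor of stem and mast cells, sat at the threshold with -0.98 (adjusted p = 9.16e-07) and crossed it by library size alone (-1.04), on autosomes only (-1.06), with GC content offsets or at a mean CPM of at least 2 (just past -1 in each) and in the fits without URE-GMP replicate 3 (-1.09), without URE-LSK replicate 3 (-1.05) or without any 1 of the 6 WT libraries (-1.01 in each). Of the 14 regions linked to Gata2, 6 opened and 1 closed, against 27.6% and 21.6% of all regions. For Erg, the intronic region with the most counts had 52.6 ± 2.14 CPM in URE-LSK and 32.7 ± 3.73 CPM in URE-GMP (log2 fold change -0.69, adjusted p = 5.37e-05). In WT it stood at 49.4 and 49.0 CPM, and the difference of -0.68 (adjusted p = 0.00895) was below the fold threshold.

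Surface receptors of stem cells gave a mixed picture. Of 192 regions linked to 17 genes, 56 opened (29.2%) and 40 closed (20.8%), shares near those of all regions (27.6% and 21.6%). Of the 57 within 5 kb of a start site, 5 opened and 13 closed, and the share over all regions that near was not counted. An intronic region of Flt3, a cytokine receptor of multipotent progenitors, closed from 37.0 ± 1.89 to 14.1 ± 1.5 CPM (SD, n = 3 each), a log2 fold change of -1.39 (adjusted p = 4.50e-08), and the Flt3 promoter had -0.84 (adjusted p = 9.23e-06). All 3 regions linked to Tek, the angiopoietin receptor, closed, as did 5 of 9 linked to Slamf1. Cxcr4, the receptor that retains cells in the marrow, had 16 of 30 linked regions opened and 2 closed.

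Granule protein genes showed the highest share of openings among the 16 lists. Of 141 regions linked to 15 primary granule genes, 87 (61.7%, against 27.6% of all regions) opened and 10 (7.09%, against 21.6%) closed. Their median log2 fold change was 1.64. All linked regions opened for Mpo (5 of 5), Ctsg (7 of 7), Ms4a3 (6 of 6), Elane (2 of 2) and Hp (3 of 3), and 17 of 23 for Plac8. The region over the promoter of Mpo, the gene of myeloperoxidase, rose from 16.5, 12.1 and 35.3 CPM in URE-LSK to 336, 313 and 371 CPM in URE-GMP (log2 fold change 3.99, SE 0.29, adjusted p = 1.77e-08). URE-LSK replicate 3 was the highest of its group there and also at the promoters of Elane, Ctsg and Camp. The promoter of Elane, the gene of neutrophil elastase, rose from 0.833, 0.754 and 1.60 CPM to 23.5, 23.2 and 25 CPM (log2 fold change 4.46, SE 0.25, adjusted p = 3.28e-09). The promoter of Ctsg, the gene of cathepsin G, rose from 9.47, 8.96 and 19.5 CPM to 108, 105 and 101 CPM (log2 fold change 3.04, SE 0.23, adjusted p = 2.11e-08). The promoter of Ms4a3, a membrane protein gene whose expression marks GMP, rose by 4.31 on the log2 scale (adjusted p = 1.29e-08). A region linked to Ms4a3, over an annotated coding exon, rose from 0.0714, 0.391 and 0.107 CPM to 1.08, 1.27 and 0.557 CPM (log2 fold change 2.43, SE 0.46, adjusted p = 2.06e-04), by 1.83 more than in WT (adjusted p = 0.0361). That call was lost without any 1 of 5 libraries (1.44 to 1.75). The promoter region of Prtn3, which it shares with Plppr3, stood at 10.5 ± 0.685 and 17.1 ± 1.01 CPM (SD, n = 3 each), a log2 fold change of 0.70 (adjusted p = 5.53e-05) that was below the fold threshold.

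An intergenic region 3 kb upstream of Ctsg gained less than in WT. It rose from 12.2, 10 and 19.9 CPM in URE-LSK to 64.6, 67.7 and 62.7 CPM in URE-GMP (log2 fold change 2.21, SE 0.23, adjusted p = 3.99e-07). In WT it rose from 3.77 to 44.2 CPM on average (log2 fold change 3.60), and the difference of the steps was -1.39 (SE 0.33, adjusted p = 0.00871). The mean level was thus higher in URE than in WT in both cell types, with the larger ratio in LSK, and these genotype gaps were not tested here.

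Regions at genes of the later neutrophil granules opened as well. Of 90 regions linked to 16 genes, 49 (54.4%, against 27.6% of all regions) opened and 9 (10%, against 21.6%) closed, with a median of 1.34. All regions linked to S100a8 (5 of 5), Ngp (3 of 3) and Cd177 (3 of 3) opened, and 8 of 12 linked to Itgam, the CD11b integrin chain, opened. The promoter of Camp, the gene of cathelicidin, rose from 1.21, 1 and 2.03 CPM to 29.2, 30.3 and 26.3 CPM (log2 fold change 4.32, adjusted p = 5.90e-09). The promoter of S100a8, a subunit of calprotectin, rose from 0.999, 0.865 and 1.39 CPM to 24.1, 23.9 and 18.6 CPM (log2 fold change 4.34, SE 0.28, adjusted p = 7.97e-09). The promoter of Mmp8, the neutrophil collagenase, rose from 0.404, 0.363 and 0.833 CPM to 13.8, 13.9 and 14.1 CPM (log2 fold change 4.67, SE 0.24, adjusted p = 2.10e-09). Both gained more than in WT, by 2.03 (adjusted p = 0.00169) for S100a8 and 1.96 (adjusted p = 5.92e-04) for Mmp8, with WT-LSK means of 3.09 and 2.68 CPM that lay above all URE-LSK libraries. An intergenic region downstream of S100a8 rose by 2.73 (SE 0.22), and by 1.72 more than in WT (adjusted p = 0.00138), with WT means of 1.37 and 2.79 CPM. The promoter of Ltf, the gene of lactoferrin, was an exception with 3.92 ± 0.726 CPM in URE-LSK and 2.74 ± 0.151 CPM in URE-GMP (log2 fold change -0.51, adjusted p = 0.0231).

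At transcription factors of the granulocyte programme, the promoters of Cebpa, Cebpb and Gfi1 stayed below the fold threshold while other linked regions opened. Of 98 regions linked to 9 such genes, 45 (45.9%, against 27.6% of all regions) opened and 14 (14.3%, against 21.6%) closed. For Cebpa, which encodes the C/EBP factor required to form GMP, 8 of 13 linked regions opened and 0 closed, while its promoter, open in both cell types, went from 74.9 ± 0.884 to 138 ± 2.49 CPM (SD, n = 3 each). That log2 fold change of 0.88 (adjusted p = 1.58e-07) was below the fold threshold and passed it with GC content offsets (1.06). The promoter of Cebpb had 0.70 (adjusted p = 2.10e-04) and that of Gfi1, a repressor needed for neutrophils, 0.73 (adjusted p = 2.76e-04). The promoter of Cebpe, whose factor acts late in the neutrophil lineage, rose from 2.97, 3.43 and 5.62 CPM to 46.4, 43.8 and 40.0 CPM (log2 fold change 3.43, SE 0.23, adjusted p = 9.86e-09). Its step exceeded that of WT by 1.03 (adjusted p = 0.0317), a call that was lost with GC content offsets (0.96), on autosomes only (0.95), among regions with a mean CPM of at least 2 (0.99), against the fold threshold (glmTreat), at an adjusted p below 0.01 and without URE-GMP replicate 1 (0.98) or 2 (1.02), URE-LSK replicate 1 (0.85) or 2 (0.93), WT-GMP replicate 3 (0.93) or WT-LSK replicate 3 (0.92).

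Away from the promoters, the linked regions with the most counts opened at Cebpd, Gfi1 and Gfi1b and were below the fold threshold at Cebpa (-0.24), Cebpb (-0.59) and Cebpe (0.48). A region 2.85 kb downstream of the Cebpd start, over an annotated noncoding exon or UTR, rose from 0.595, 1.26 and 0.833 CPM to 9.84, 13.4 and 8.41 CPM (log2 fold change 3.57, SE 0.25, adjusted p = 1.26e-08), while the Cebpd promoter rose by 1.34 (adjusted p = 4.46e-09). In WT mice the Cebpd downstream region went from a mean of 7.17 CPM to one of 15.5 CPM, and the difference of the steps was 2.46 (SE 0.32, adjusted p = 1.55e-04), against 0.52 (adjusted p = 0.00479) at the promoter. An intronic region 23.6 kb upstream of Gfi1 rose by 1.18 (SE 0.09, adjusted p = 2.29e-08). Gfi1b, the Gfi1 paralogue of the erythroid and megakaryocyte lineages, showed opposite signs within one gene. Its intronic region (chr2:28618531-28619251), with a C/EBP match, rose from 0.880, 0.949 and 1.79 CPM to 18.9, 19.4 and 19.6 CPM (log2 fold change 3.98, SE 0.27, adjusted p = 9.48e-09), while its promoter had -0.74 (adjusted p = 2.18e-04), below the fold threshold.

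Accessibility of the Spi1 promoter rose in URE mice, which lack the element, and a change in WT mice was not detectable. The Spi1 promoter region (chr2:91096454-91097341) had 2.83, 8.46 and 5.64 CPM in URE-LSK and 24.2, 29.1 and 21.2 CPM in URE-GMP. These groups did not overlap, and the log2 fold change was 2.15 (SE 0.24, adjusted p = 1.05e-06). In WT the means were 35.2 ± 1.27 and 35.7 ± 1.70 CPM (SD, n = 3 each), a log2 fold change of 0.02, and the difference of the steps was 2.13 (SE 0.33, adjusted p = 5.10e-04). URE-GMP thus remained below WT-GMP at this promoter in every library. Of 13 regions linked to Spi1, 6 opened and 2 closed from URE-LSK to URE-GMP, and 6 opened and 0 closed in WT. Of all regions, 27.6% opened and 21.6% closed in URE, and 21.0% and 16.8% in WT.

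Regions at monocyte genes opened in URE mice too. Of 266 regions linked to 22 genes, 112 (42.1%, against 27.6% of all regions) opened and 41 (15.4%, against 21.6%) closed, with a median of 0.62. All 5 regions linked to Ly6c2 and all 5 linked to Cybb, a subunit of the phagocyte oxidase, opened, and so did 13 of 26 linked to Ly86. The region far downstream of Irf8, which encodes a factor that directs cells to the monocyte and dendritic lineages, is shown above (chr8:120792521-120793323, in an annotated intron). It rose from 0.738, 1.51 and 2.63 CPM to 24.2, 29.7 and 27.5 CPM (log2 fold change 4.04, SE 0.27, adjusted p = 1.00e-08). WT-LSK already had 16.2 CPM there and WT-GMP 37.5 CPM on average (log2 fold change 1.21), and the difference of the steps was 2.83 (SE 0.35, adjusted p = 1.03e-04). The Irf8 promoter did not follow, with 20 ± 0.359 and 17.9 ± 1.58 CPM (SD, n = 3 each) and a log2 fold change of -0.16 (adjusted p = 0.247) in URE against 0.48 in WT, a difference of -0.64 (adjusted p = 0.018).

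The Csf1r promoter, of the macrophage colony-stimulating factor receptor, rose from 0.119, 0.167 and 0.235 CPM (5 to 11 counts) to 3.12, 4.93 and 1.5 CPM (log2 fold change 4.17, SE 0.42, adjusted p = 3.58e-07). The Ly86 promoter rose from 0.0952, 0.140 and 0.150 CPM to 3.23, 5.05 and 1.57 CPM (log2 fold change 4.66, SE 0.47, adjusted p = 3.47e-07). At both promoters URE-GMP replicate 2 was the highest and replicate 3 the lowest of the group, and all lay above URE-LSK. URE-GMP stayed below the WT-GMP means of 11.4 and 9.07 CPM. The Csf1r step exceeded that of WT by 2.60 (SE 0.53, adjusted p = 0.0038), from 3.83 CPM in WT-LSK. An intronic Csf1r region with 33.6 ± 0.757 CPM in URE-LSK and 34.1 ± 5.27 CPM in URE-GMP overlapped between the cell types (log2 fold change 0.02, adjusted p = 0.86), and its sign changed with the scaling. The Klf4 promoter, of another monocyte factor, also overlapped (log2 fold change -0.20, adjusted p = 0.0596; 0.06 with GC content offsets).

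Of 88 regions linked to 8 myeloid growth factor receptor genes, 37 (42.0%, against 27.6% of all regions) opened and 9 (10.2%, against 21.6%) closed. The region upstream of Csf3r, the granulocyte colony-stimulating factor receptor, rose from 0.809, 0.530 and 1.62 CPM to 17.0, 16.7 and 15.8 CPM (log2 fold change 4.03, SE 0.33, adjusted p = 3.96e-08). The Csf3r promoter, open in both cell types, had 20.7 ± 4.89 and 32.8 ± 4.25 CPM (SD, n = 3 each) and a log2 fold change of 0.66 (adjusted p = 7.21e-04). Of 23 regions linked to Ifngr1, the interferon gamma receptor, 13 opened.

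**Figure D2:**
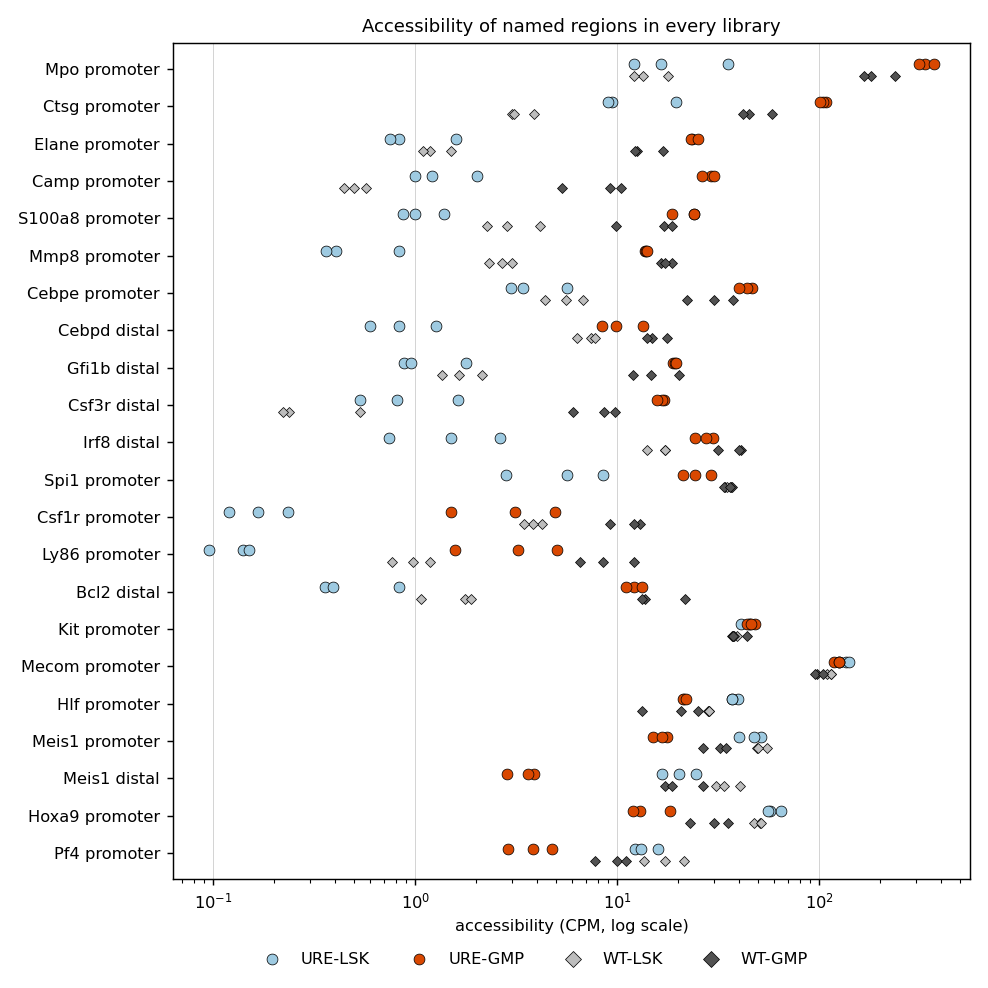
Accessibility (CPM, log x axis) of 22 named regions in each library, with circles for URE-LSK and URE-GMP and diamonds for WT-LSK and WT-GMP. The granule gene promoters sit well above URE-LSK in every URE-GMP library, and the Spi1 promoter spans 2.83 to 8.46 CPM in URE-LSK and 21.2 to 29.1 CPM in URE-GMP against 35.2 and 35.7 CPM on average in WT.

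Among genes of other lineages, the erythroid and megakaryocyte lists had larger shares of closings than of openings. Erythroid genes had 16 of 82 linked regions opened (19.5%) and 24 closed (29.3%), and megakaryocyte genes 23 of 149 opened (15.4%) and 42 closed (28.2%). Of all regions, 27.6% opened and 21.6% closed. The promoter of Pf4, platelet factor 4, fell from 12.3, 15.9 and 13.1 CPM to 2.88, 3.85 and 4.77 CPM (log2 fold change -1.85, SE 0.21, adjusted p = 1.22e-06). The promoter of Itga2b, the platelet integrin CD41, had -0.58 (adjusted p = 5.39e-05) in URE against -0.06 in WT, a difference of -0.53 (adjusted p = 0.0151) below the fold threshold. The Gata1 promoter was low, with 0.526 ± 0.194 CPM in URE-LSK and 1.24 ± 0.324 CPM in URE-GMP. Its log2 fold change of 1.23 (adjusted p = 9.58e-04) lost its call without URE-GMP replicate 2 (1.0) or URE-LSK replicate 1 (0.96). Summed over promoter regions, erythroid genes ranged from 411 to 454 CPM in URE-LSK and from 364 to 401 CPM in URE-GMP. Megakaryocyte genes ranged from 460 to 499 and from 340 to 377 CPM, and neither list overlapped between the cell types. The erythroid genes Klf1, Car1, Hba-a1, Hba-a2, Hbb-bt, Slc4a1 and Rhag had no promoter region.

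The lists that follow are read against 27.6% opened and 21.6% closed of all regions. Among B lineage genes 22 of 108 regions opened (20.4%) and 30 closed (27.8%), with Dntt at 2 opened and 7 closed of 12. An intronic region of Ebf1, the B lineage determining factor, had -0.58 (adjusted p = 0.00523). An intergenic region linked to Il7r, the interleukin 7 receptor, rose from 0.809, 0.754 and 1.35 CPM to 3.27, 4.30 and 3.08 CPM (log2 fold change 1.86, adjusted p = 5.29e-06), and by 1.36 more than in WT (SE 0.34, adjusted p = 0.0121). T lineage genes had 43 of 152 regions opened (28.3%) and 28 closed (18.4%), close to all regions. Of the 56 within 5 kb of a start site, 6 opened and 11 closed, and the share over all regions that near was not counted. For 30 of the 152 the step was more positive in URE than in WT and for 1 more negative, against 8.96% and 5.03% of all regions, and 10 of the 30 were linked to Thy1, which the stem cell surface list also holds. A region 35.5 kb upstream of Tcf7, the T cell factor TCF1, fell from 42.0, 43.0 and 39.7 CPM to 9.99, 9.97 and 13.8 CPM (log2 fold change -1.89, SE 0.14, adjusted p = 2.37e-08). Dendritic and antigen presentation genes had 29 of 149 regions opened (19.5%) and 37 closed (24.8%). Their promoter sums did not overlap, with 299 to 357 CPM in URE-LSK and 255 to 266 CPM in URE-GMP, where 3 of 28 regions opened and 7 closed. Mast cell, basophil and eosinophil genes had 30 of 78 opened (38.5%) and 18 closed (23.1%), and the promoter of the mast cell protease gene Cpa3 fell by 1.47 on the log2 scale (adjusted p = 3.26e-04). Promoter sums of the other lists here ranged from 63.6 to 66.5 CPM in URE-LSK and 73.5 to 80.7 CPM in URE-GMP for the mast cell list, from 141 to 154 and 147 to 153 CPM for B lineage genes and from 317 to 341 and 312 to 321 CPM for T lineage genes. The part that cells of other lineages inside the gates had in these values was not tested.

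Survival and cell cycle genes were read against the same background of 27.6% opened and 21.6% closed. Bcl2 family genes had 57 of 131 linked regions opened (43.5%) and 17 closed (13%). The step was more positive in URE than in WT for 25 of them (19.1%) and more negative for 3 (2.29%), against 8.96% and 5.03% of all regions. Bcl2l11, which encodes the death-promoting protein BIM, had 18 of 39 regions opened and 7 closed, and Pmaip1, which encodes NOXA, 10 of 17 opened and 0 closed. Bcl2l11 held 9 and Pmaip1 held 6 of the 25 regions with the more positive step in URE. An intronic region 18.4 kb inside Bcl2 (chr1:106695658-106696120) rose from 0.357, 0.391 and 0.833 CPM to 12.1, 13.3 and 11.1 CPM (log2 fold change 4.50, SE 0.32, adjusted p = 1.29e-08). In WT it also opened, from 1.57 to 16.2 CPM on average (log2 fold change 3.40). The difference of the steps there, 1.09, was not called (adjusted p = 0.0843). The Bcl2 promoter stood at 67.8 ± 1.72 and 65.5 ± 1.53 CPM (SD, n = 3 each; log2 fold change -0.05, adjusted p = 0.514). Quiescence and cell cycle genes had 76 of 209 regions opened (36.4%) and 25 closed (12%), but 38 of the 76 were linked to Cdk6 alone. Cdkn1c, the cell cycle inhibitor p57 of quiescent stem cells, had 13 of 20 regions closed and 0 opened. Housekeeping genes had 17 of 89 opened (19.1%) and 13 closed (14.6%).

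**Figure D3:**
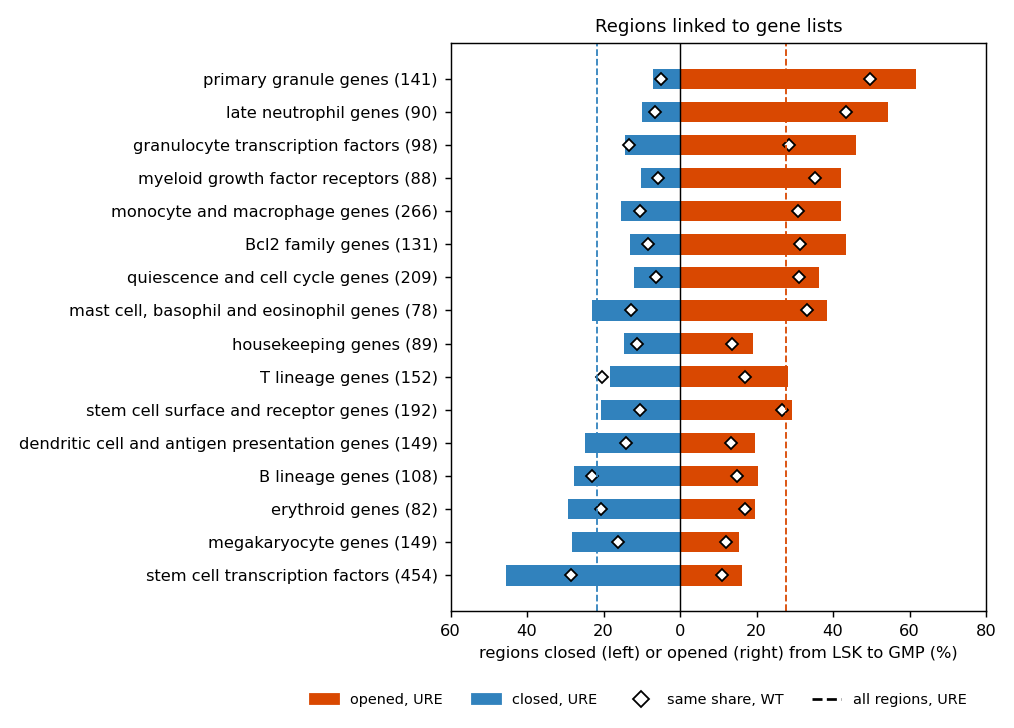
Percent of linked regions that opened (right) or closed (left) from URE-LSK to URE-GMP for 16 gene lists, with the number of regions in brackets, diamonds for the same shares in WT and dashed lines for all regions (27.6% and 21.6%). Primary granule genes reach 61.7% opened and stem cell transcription factors 45.6% closed.

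Openings and closings differed in the motif letters of their central 300 bases. The C/EBP letters, found in 16.4% of all regions, occurred in 31.0% of opened, 10% of closed and 11.3% of uncalled regions. Of the 19929 regions that held them, 52.0% opened and 13.1% closed, against 27.6% and 21.6% of all regions, with a median log2 fold change of 1.2. HLF letters (3.10% of regions), bound by the PAR bZIP factors, whose sites resemble those of C/EBP, opened in 44.7% and closed in 18.4%. PU.1 letters (8.70% of regions) opened in 40.8% and closed in 15.3%. Outside promoters, where 31.4% opened and 23.7% closed in all, the C/EBP shares were 54.4% and 13.5% and the PU.1 shares 42.4% and 15.7%.

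Regions with MEIS-HOX or RUNX letters closed in a larger share than all regions. MEIS-HOX letters (3.26% of regions) opened in 24.3% and closed in 35.8%, and RUNX letters (14.4% of regions) in 27.1% and 30.9%. Among 13389 regions with RUNX but neither C/EBP nor PU.1 letters, 21.8% opened and 34.4% closed. GATA letters (12.9% of regions) opened and closed in 28.4% each, and AP-1 letters (TGANTCA, 12.1%) in 28.5% and 27.6%. IRF letters (GAAANNGAA, 10.8%) opened in 28.6% and closed in 24.9%, near the background. E-box letters (CAGCTG, 20.5%) and GFI1 letters (AATCACNGC, 0.654%) were also near it, and MYB letters (AACTGCC, 5.24%) opened in 33.3% and closed in 19.2%. Regions with CTCF motifs (3.75% of regions), which mark chromatin loop anchors, opened in 4.22% and closed in 8.52%. ETS letters of the CCGGAAGT form (1.22%) and KLF letters (GGGCGTG, 3.92%) had low shares in both directions, 14.8% and 8.65% for ETS and 16.7% and 13.2% for KLF, and outside promoters 29.3% and 16.9% for ETS and 27.1% and 18.8% for KLF. No 2 of these letter sets can match the same bases exactly, but matches can overlap in part.

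C/EBP and PU.1 letters occurred together in 1525 regions, of which 56.9% opened and 10.3% closed from URE-LSK to URE-GMP. With C/EBP letters alone 51.6% of 18404 regions opened, with PU.1 letters alone 38.0% of 9026, and with neither 21.3% of 92381. In the WT step the same shares were 38.4%, 42.6%, 21.2% and 16.3%, against 21.0% of all regions. The step was more positive in URE than in WT for 26.4% of regions with both, 11.9% with C/EBP alone, 19.0% with PU.1 alone and 7.11% with neither (8.96% of all regions). The median level of regions with PU.1 letters was 0.858 CPM in URE-LSK and 1.47 CPM in URE-GMP, and 2.90 and 3.36 CPM in WT-LSK and WT-GMP.

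**Figure D4:**
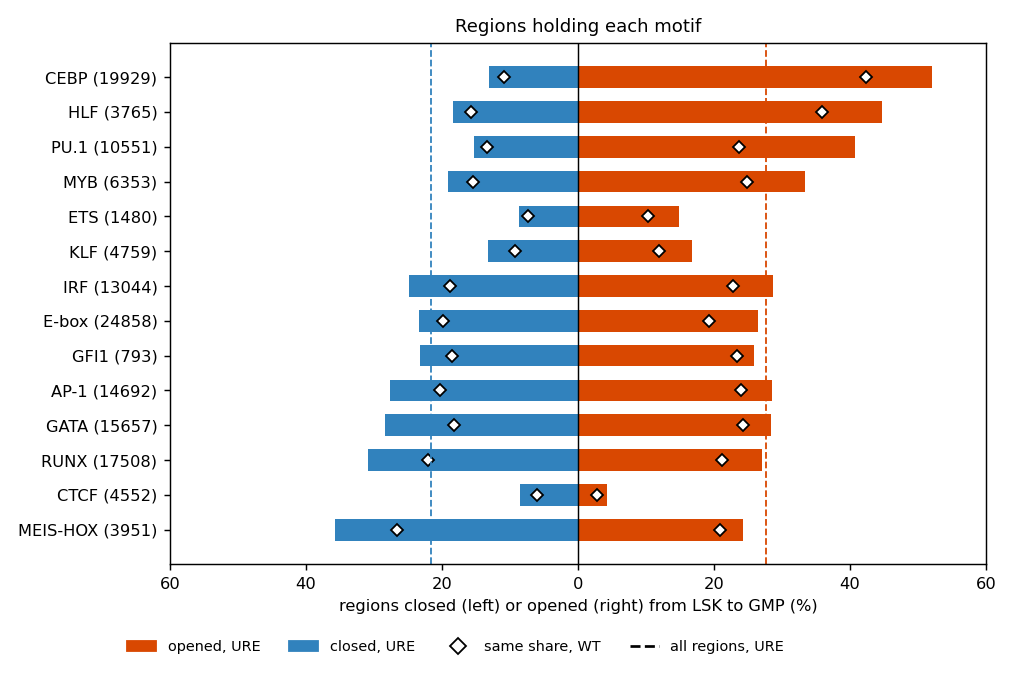
Percent of regions that opened (right) or closed (left) from URE-LSK to URE-GMP among those with a match to each of 14 motifs in their central 300 bases (number of regions in brackets), with diamonds for the WT shares and dashed lines for all regions in URE. Regions with C/EBP letters opened in 52.0% and those with MEIS-HOX letters closed in 35.8%.

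The step in URE mice called more regions than the same step in WT mice, where 45878 (37.8%) were called, 21.0% opened and 16.8% closed. The libraries differed in depth, with 36573582 to 62204826 counts in URE and 23072701 to 46320787 counts in WT. The part that depth had in these numbers of calls, and in the shares of shared calls below, was not tested. The log2 fold changes of the 2 steps, which share no library, correlated across the 121336 regions with a Pearson r of 0.85. Of the regions opened in URE, 21904 also opened in WT (65.4% of the URE and 86.1% of the WT openings). Of the regions closed in URE, 16174 also closed in WT (61.8% of the URE and 79.2% of the WT closings). Opposite calls were few, with 192 regions opened in URE and closed in WT and 79 the reverse. Among the shared openings the median log2 fold change was 3.06 in URE and 2.28 in WT.

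The steps of the genotypes were set against each other in the same fit (the contrast of contrasts), and 16975 regions (14.0%) differed. In 10873 (8.96%) the step was more positive in URE and in 6102 (5.03%) more negative. The latter count was 3979 when WT-GMP replicate 3 was left out and 4046 when WT-LSK replicate 2 was. Of 11383 regions opened in URE and not called in WT, 6145 (54.0%) passed this test. Their median level was 0.485 CPM in URE-LSK and 2.65 CPM in URE-GMP, while WT-LSK had 3.51 CPM and WT-GMP 4.02 CPM. At the median these regions were already accessible in WT-LSK and low in URE-LSK. They were picked for a rise in URE, no call in WT and a called difference, so these levels follow in part from the rule. Picking regions called in URE and not in WT also favours a called difference. Of 9904 regions closed in URE and not called in WT, 3097 (31.3%) passed, with medians of 4.05 CPM in URE-LSK and 1.06 CPM in URE-GMP against 2.83 and 2.37 CPM in the WT cell types. In this set, picked in the same way, the gap between the genotype medians was the wider in GMP. Among the regions called in WT alone, the difference was called in 19.9% of 3467 opened and 23.0% of 4062 closed regions.

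**Figure D5:**
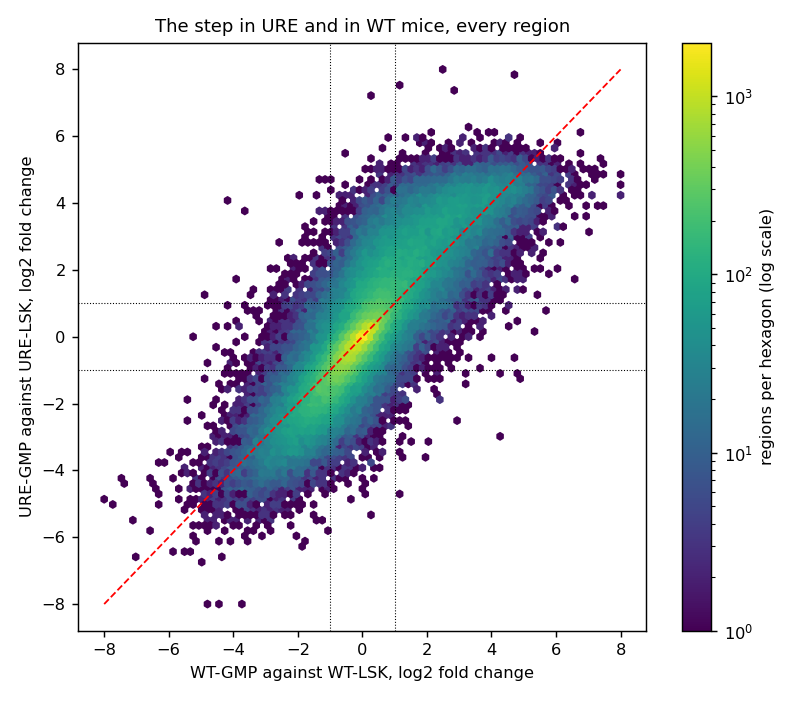
Log2 fold change from LSK to GMP in URE mice (y axis) against WT mice (x axis) for 121336 regions, as hexagons coloured by the number of regions on a log scale, with dotted lines at the fold threshold and a dashed line of equal steps. The cloud follows the diagonal (Pearson r of 0.85) and, on the right, bulges above it where regions gained more in URE.

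The regions with the smallest p-values in each direction, among intronic and intergenic regions outside chromosome 18, are extremes of the step. Median log2 fold changes were 2.54 over all opened and -1.83 over all closed regions. Picking these regions on the URE step also favours a larger step in URE than in WT. Of those that opened, an intronic region linked to Aatk, a kinase gene (chr11:120034347-120035272), rose from 1.28, 1.62 and 1.82 CPM to 34.5, 37.5 and 30.2 CPM (log2 fold change 4.43, SE 0.17). An intronic region linked to Ezr, the gene of the membrane linker ezrin (chr17:6745936-6747237), rose from 3.74, 4.13 and 4.78 CPM to 59.6, 61.9 and 52.7 CPM (log2 fold change 3.78, SE 0.15). The region linked to Tnfrsf1b, a tumour necrosis factor receptor gene (chr4:145276372-145276937), rose from 0.880, 0.921 and 1.24 CPM to 22.9, 27.3 and 23.3 CPM (log2 fold change 4.58, SE 0.18). All 3 gained more in URE than in WT, by 2.64, 1.47 and 3.14 (adjusted p = 5.88e-06, 1.55e-04 and 2.78e-06), and their WT-LSK means of 8.56, 7.56 and 6.51 CPM lay above all URE-LSK libraries.

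Of those that closed, the region linked to Gm17542 (chr10:58713735-58714812) fell from 42.8, 38.9 and 35.2 CPM to 4.82, 5.05 and 5.55 CPM (log2 fold change -2.92, SE 0.12). The intergenic region linked to Ndufa9, a complex I subunit gene (chr6:126811519-126812031), fell from 20, 17.3 and 15.1 CPM to 0.301, 0.416 and 0.388 CPM (log2 fold change -5.55, SE 0.24). An intronic region linked to D6Ertd527e (chr6:87152188-87153468) fell from 88.2, 76.0 and 75.9 CPM to 15.7, 16.4 and 16.5 CPM (log2 fold change -2.30, SE 0.10). The adjusted p of each of these 6 regions was 9.23e-10. In each the URE-LSK and URE-GMP libraries did not overlap, as the rule for naming them required. The first and last of the closing regions lost more in URE than in WT, by -1.42 (adjusted p = 6.68e-05) and -1.46 (adjusted p = 1.30e-05).

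Some called regions lay side by side with others of the same direction. The 33479 openings formed 20732 runs and the 26157 closings 17824 runs, single regions included, and adjacency was not set against a background. With gaps of up to 50 kb and no uncalled or opposite region between them, 625 runs of 5 or more opened regions held 11.5% of all openings, and 326 runs of closed regions held 7.47% of all closings. The longest opened run held 17 regions over 91.7 kb at Ednra, an endothelin receptor gene (chr8:77711766-77803500), with a median log2 fold change of 3.89 in URE and 1.17 in WT, and 9 of the 17 opened in WT. Next were 14 regions at the chemokine gene Ccl6 (chr11:83584322-83629135, median 3.42 in URE and 1.74 in WT) and 14 at the adaptor gene Nedd9 (chr13:41402454-41478970, 3.86 and 2.97). The longest closed run held 18 regions over 64.4 kb at Meis1 (chr11:18963248-19027610), with a median of -1.83 in URE and -0.59 in WT. Of these 18, 5 closed in WT, and the difference of the steps was called in 8. The other long closed runs held 15 regions with no linked gene (chr8:121305829-121393428, -2.30 and -1.23) and 13 at Pdgfb and Cbx7 (chr15:79950214-80014729, -1.75 and -1.15).

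The genes with the most linked openings were Pde4d (46 of 135 regions), Cdk6 (38 of 50), Etv6 (38 of 80), Foxp1 (36 of 92), Rreb1 (29 of 55) and Sipa1l1 (29 of 57). Cdk6 is a cell cycle kinase that is low in dormant stem cells, and Etv6 and Foxp1 are transcription factors of blood cells. Pde4d, a phosphodiesterase gene with many intronic regions, also led the closings (34 of 135), so that its regions went both ways. It was followed by Hivep3 (29 of 58), Prdm16 (27 of 37), Bach2 (23 of 68), Mecom (23 of 40) and Ttc28 (22 of 34). Counts of this kind favour genes with many linked regions, and 27.6% of all regions opened and 21.6% closed.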

How the data were processed

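ATAC-seq was measured in 12 libraries of sorted bone marrow cells (3 each of WT-LSK, WT-GMP, URE-LSK and URE-GMP). The authors trimmed with cutadapt, aligned to GRCm38 with Bowtie2, removed duplicates, called peaks per cell type and genotype with Genrich, merged them (bedtools) and deposited raw counts per region from featureCounts. Whether fragments or read ends were counted, and how region starts are numbered, is not given in the sources used here; starts were taken as counted from 0 and are printed counted from 1.

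Counts were fitted with edgeR 4.0.16 (R 4.3.3; TMM, quasi-likelihood test, 4 group means, 12 libraries), tested on simulated data first. filterByExpr removed 0 regions. Regions were called at a Benjamini-Hochberg adjusted p below 0.05 and an absolute log2 fold change above 1. Annotation was GENCODE on GRCm38: promoter regions lay within 500 bp of a start site, other links used the nearest protein-coding start within 100 kb. Motif letters were searched on both strands of the central 300 bases. Named regions were, for 41 key genes, the promoter and distal regions with most counts. Then came the 3 regions per direction with the smallest p, the 6 genes with most calls and the 3 longest runs. Those 3 regions were taken among intronic or intergenic calls outside chromosome 18 whose libraries did not overlap between the cell types. One marker gene is not reported here. Members and lists were chosen with earlier results of these data known. Alternatives were other scalings, filters, thresholds, DESeq2 1.42.0, limma 3.58.1 loess offsets, a replicate block and leaving out each library. The precision of each call rests on 3 libraries per group with 23072701 to 62204826 counts. Each p-value sets a difference of group means against the spread between libraries, as estimated from all 12.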

Additional observations from a re-analysis of the deposited data

Results flagged for a closer look

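The step from LSK to GMP differed between URE and WT mice in 16975 regions by the interaction test of the 12-library fit. Among the named regions the difference, URE minus WT on the log2 scale, was called at the Spi1 promoter (2.13), the region downstream of Irf8 (2.83), the promoters of Csf1r (2.60), S100a8 (2.03), Mmp8 (1.96) and Cebpe (1.03), the regions beside Cebpd (2.46), Ms4a3 (1.83) and S100a8 (1.72) and the region linked to Il7r (1.36). The 3 opened regions named for the smallest p among intronic and intergenic ones, linked to Aatk, Ezr and Tnfrsf1b, differed by 2.64, 1.47 and 3.14. The step was more negative in URE at the Meis1 intron (-1.81), the Hoxa9 promoter (-1.26), the region upstream of Ctsg (-1.39) and the closed regions linked to Gm17542 (-1.42) and D6Ertd527e (-1.46). The Cebpe and Ms4a3 differences were close to the thresholds and were not called under several alternatives. Groups of 3 libraries were not searched for single outlying values.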

How the results depend on the processing

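The call counts held within 1.5 times of 59636 (either direction), 33479 (opened), 26157 (closed) and 16975 (difference of the steps) under most alternatives. Keeping regions with a mean CPM of at least 2 gave 31545, 17048, 14497 and 10749 calls among 77944 regions. These were 64.2% of all regions. In the all-region fit 31475 of them (40.4%) were called, against 49.1% of all regions, so regions below that level were called in a larger share. Without a fold threshold 39587 regions closed. A test against the fold threshold (glmTreat) left 3703 differences of the steps and an adjusted p below 0.01 left 8524. Leaving out 1 library at a time gave 57048 to 61000 calls, 31223 to 34429 opened, 25554 to 26918 closed and 12478 to 18345 differences. DESeq2 called 59333 regions and 18851 differences, and the 6 URE libraries alone 58360 calls. Opened regions made up 52.0 to 59.3% of calls across these settings. Counts of lists fell within 5 kb of a start site (primary granule genes 48 opened, stem cell factors 58 closed). There the stem cell surface genes (5 opened, 13 closed) and T lineage genes (6 and 11) turned to more closings than openings. The share over all regions within 5 kb was not counted, while promoter regions opened in 11.1% and closed in 12.3%. Runs of closed regions fell to 207 with gaps of 25 kb.

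Signs turned only at near-zero named regions. The Bcl2 promoter had 0.01 with RLE factors and DESeq2 and 0.09 with GC offsets, with and without the block. The Klf4 promoter had 0.06 with GC offsets and 0.05 with the block added, and the Kit promoter -0.01 on autosomes only. The intronic Csf1r region had -0.05 by library size, -0.01 at a mean CPM of at least 2, -0.06 on autosomes only and -0.07 to 0.14 without 1 library.

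With the replicate number as a block, 59671 regions were called (33444 opened, 26227 closed) and 20170 differences, and 59964 (32424 and 27540) and 20233 with GC offsets as well. Same-numbered LSK and GMP libraries correlated in their deviations at 0.062, 0.273 and 0.113 in URE and 0.181, 0.191 and 0.207 in WT. Different-numbered libraries ranged from -0.219 to 0.114 in URE and from -0.139 to -0.041 in WT. The value of 0.114 was that of URE-LSK replicate 1 with URE-GMP replicate 3. The sources state no pairs, so the main fit used none and the block stands as an alternative. Low counts limit the size of openings from near 0, and 3 libraries per group limit small differences of the steps.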
